A study of Mus musculus with 36 samples.

Results

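The nuclear genes of oxidative phosphorylation were followed through the mouse submandibular salivary gland as a single group of 90 genes. The group was taken by name: every row of the 26 single-cell expression tables beginning with Nduf, Uqcr, Atp5, Cox4, Cox5, Cox6, Cox7 or Cox8, together with Ppargc1a, was a member if it held at least 10 unique molecular identifiers (UMIs) over all tables. Of 93 matching names, 3 stayed below that minimum, which were Cox6a2 with 7 UMIs, Cox8c with 5 and Cox7b2 with 2. The 90 members were part of 19701 genes that passed the same minimum and of 29502 genes with any UMI. By role they comprised 36 subunits of complex I, 7 complex I assembly factors, 8 genes of complex III, 16 of complex IV, 15 of complex V, the supercomplex assembly factor Cox7a2l, the coactivator Ppargc1a, 4 pseudogene rows and 2 further genes caught by the prefix, Atp5sl and Atp5s.

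In oxidative phosphorylation, electrons from NADH enter the inner mitochondrial membrane at complex I, pass through complex III and cytochrome c to complex IV, where oxygen is reduced, and the proton gradient built on the way drives ATP synthesis by complex V. Most subunits are encoded in the nucleus, whereas a core set, read here from the rows with the prefix mt-, is encoded by mitochondrial DNA. Ppargc1a encodes PGC-1α, a coactivator of the transcription factors that drive mitochondrial genes. In salivary glands, acinar cells secrete the primary saliva, and striated ducts, whose cells are known for densely packed mitochondria, reabsorb salt from it.

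By the paper's breeding scheme, all mice carried K14-Cre, which recombines floxed alleles in the basal epithelium, and a Cre-inducible EYFP reporter at R26. Controls carried no further allele in this scheme. Double-mutants carried in addition a floxed gain-of-function allele of β-catenin and floxed loss-of-function alleles of Bmpr1a. All mice had a C57BL/6 background. The genotype labels of the controls read wildtype or control and name neither Cre nor the reporter. Drop-seq, a droplet method that counts UMIs per gene and cell, was available for 12 control glands, 6 of them from postnatal day 40 (P40) and 6 from P90, and for 14 double-mutant glands, 7 from each stage, each library holding the cells of 1 gland from a male or female mouse. CITE-seq RNA libraries covered 2 control and 2 double-mutant glands at P70, and bulk RNA-seq covered 1 female control gland at P70 and 1 female double-mutant gland at P100.

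After removal of barcodes with fewer than 100 genes or with 15% or more mitochondrial UMIs, 23346 of 26987 Drop-seq barcodes remained, with 650301 to 6994504 UMIs per gland. Cells were clustered without the members and the clusters were named from marker lists, so each class is called by the type its markers resemble. Klk1, the kallikrein of the ducts, stood at 183000 CPM (counts scaled to a common library total of UMIs) in the striated duct-like class. In the acinar-like class Klk1 stood at 1839 CPM. That class held Prol1 at 72798 CPM against 5372 CPM in striated duct-like cells. The striated duct-like cluster passed 4 striated duct markers but also 6 granular duct markers. The duct progenitor-like cluster, marked by Ascl3, passed 5 striated duct markers. Klk1 (33062 CPM in duct progenitor-like cells) and Fxyd2 were higher in striated duct-like cells. Tfcp2l1 (716 against 837 CPM), Cftr (115 against 213 CPM), Stap1 (62.1 against 502 CPM) and Gstt1 were lower there than in duct progenitor-like cells. Barcodes overlapped in 19 of 325 pairs of libraries, by at most 1 barcode. In 2 double-mutant libraries, P40 replicate 1 and P90 replicate 5, sex-specific genes went against the label. Both came from batch 11, and whether they were exchanged was not tested; an exchange would move P40 replicate 1, the gland with the highest share of member UMIs, from the P40 to the P90 double-mutants. Another library, double-mutant P90 replicate 4, had been set aside in part of the study's own clustering for its ribosomal genes. Cytosolic ribosomal protein genes held 6.98% of its UMIs, a share exceeded among the Drop-seq glands by double-mutant P40 replicate 2 alone, with 7.54%. Results that rest on these 3 libraries are given with and without them where the call changed.

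With all UMIs in the denominator, the members' share differed strongly between cell classes. It was highest in duct progenitor-like cells marked by Ascl3, with a median of 4.73% over 24 glands (range 1.59 to 7.02%), and in striated duct-like cells, with 4.51% over 26 glands (2.09 to 8.11%). Acinar-like cells held 0.696% (0.489 to 1.03%, 26 glands), immune-like (myeloid) cells 1.18% (0.683 to 1.80%, 24 glands) and tumor-like cells of the double-mutant glands 1.92% (1.23 to 2.47%, 12 glands). Striated duct-like cells lay above acinar-like cells in 26 of 26 glands, above immune-like cells in 24 of 24 and above tumor-like cells in 12 of 12, so that the ranges of striated duct-like and acinar-like cells did not overlap. Ascl3+ cells and striated duct-like cells could not be ordered, since either was higher in 12 of 24 glands. The border between them also depended on the clustering. At a finer resolution of 1.5, the Ascl3+ class held 2067 cells instead of 966 and the striated duct-like class 1222 instead of 2122. Their median shares were then 5.33% and 3.95%.

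Of the remaining classes, Dcpp+ luminal cells lay below the acinus and the others between the striated duct and the acinus. Intercalated duct-like cells had a median share of 2.69% and granular duct-like cells 2.12%. The tumor-like classes followed, with 2.02% in the cancer stem cell-like (CSC-like) cluster, 1.93% in luminal Clu+ cells and 1.67% in basal tumor-like cells, next to 1.84% in basal normal-like and 1.71% in myoepithelial-like cells. Of these neighbours, CSC-like cells exceeded Clu+ cells in 5 of 9 glands and basal normal-like exceeded myoepithelial-like cells in 8 of 13, so neither pair was separated beyond its spread. T/NK-like cells held 1.51%, endothelial-like cells 1.36%, fibroblast-like cells 1.15% and Dcpp+ luminal cells 0.517%, the lowest value, which acinar-like cells exceeded in 12 of 13 glands. Clusters left unnamed held 14% of the kept cells, with a median share of 1.08%. Some of them passed a marker list but were led by other genes, among them 133 cells with 4 striated duct markers led by Duoxa2 and Duox2, and 580 cells with 4 acinar markers led by small noncoding RNAs, and these cells are in neither class.

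**Figure D1:**
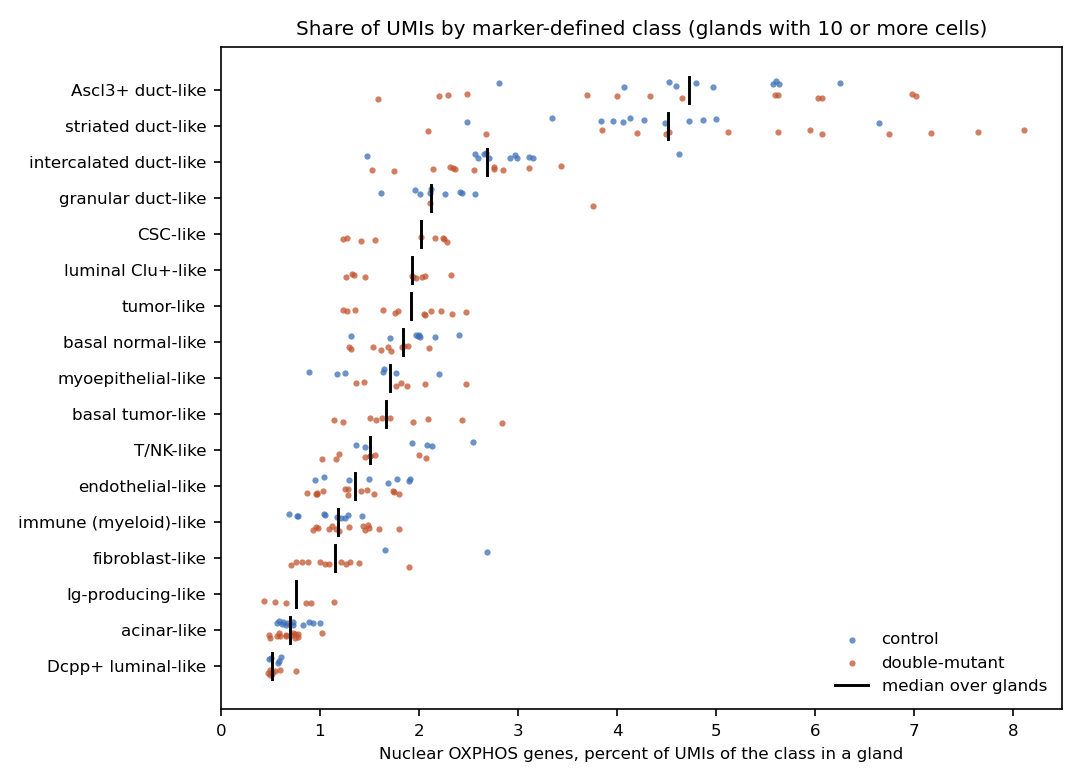
Share of UMIs held by the 90 members, in percent, for each cell class with at least 2 glands. Each point is 1 gland with at least 10 cells of the class, blue for control and orange for double-mutant, and the bar is the median. Ascl3+ and striated duct-like cells lie at the top, with medians of 4.73% and 4.51%, and acinar-like cells near the bottom at 0.696%, a place they do not keep without the 50 most abundant genes in the denominator (4.50%).

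Every complex took part in the difference. The 36 complex I subunits together held a median of 1.28% of the UMIs of striated duct-like cells and 0.230% of those of acinar-like cells. Complex III stood at 0.491% against 0.0807%, complex IV at 1.65% against 0.192% and complex V at 1.05% against 0.175%. The mitochondrially encoded subunits, which were not members, showed 4.90% against 0.624%. In immune-like cells the shares were 0.347% for complex I, 0.139% for complex III, 0.380% for complex IV and 0.284% for complex V, and in tumor-like cells 0.589%, 0.221%, 0.634% and 0.422%. Complex IV was therefore the largest of the 4 groups in striated duct-like cells, whereas complex I was the largest in acinar-like cells.

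Part of the distance between striated duct-like and acinar-like cells was a matter of the denominator. The 50 most abundant genes, which include the secreted acinar proteins and no member, held a median of 84.3% of the UMIs in acinar-like cells and 42.4% in striated duct-like cells. The striated to acinar ratio of the members' share had a median of 7.02 over 26 glands (3.18 to 12.8) with all UMIs counted, and 1.88 (1.21 to 3.0) with those 50 genes left out of the denominator, above 1 in all 26 glands in both cases. The order of the other classes also turned over without those genes. Striated duct-like (8.16%) and Ascl3+ cells (6.70%) still had the highest medians, but acinar-like cells at 4.50% and Dcpp+ cells at 3.64% then stood above tumor-like (2.64%), CSC-like (2.43%), basal normal-like (2.41%) and immune-like cells (1.91%). For single genes, edgeR scaled libraries so that the typical gene did not change, and CPM gave the unscaled level: in control glands the unscaled difference between striated duct-like and acinar-like cells exceeded the fitted one by a median of 1.81 on the log2 scale. Fitted log2 fold changes below are thus relative to the other genes of the same cells. Since the cells had been grouped with genes that vary together with the members, p-values between classes set a difference against the spread between glands and are no independent test that the classes differ.

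In control glands, 12 glands with both classes (1259 striated duct-like and 3878 acinar-like cells) were compared by edgeR's quasi-likelihood test with the gland as a block. Of the 83 members that passed the filter on low counts, 52 were higher in striated duct-like cells at a Benjamini-Hochberg adjusted p under 0.05 and 3 were lower, where 48.2% of all 6807 genes tested were called, 22.7% as higher and 25.5% as lower. The median log2 fold change was 0.51 over the members and -0.01 over all genes. All 13 tested members of complex IV were called higher, as were 6 of 8 of complex III, 20 of 36 of complex I and 10 of 15 of complex V, but none of the 6 tested complex I assembly factors. The 3 members called lower were Ndufv3 (log2 fold change -0.54), Cox7a2l (-0.44) and Ndufs6 (-0.39), and the direction of these 3 flipped without scaling, their CPM being higher in striated duct-like cells in 12 of 12 glands. Unscaled, 83 of 83 members were higher, with a median of 2.41. Of the acinar-like cells compared, 16.8% lay in a cluster led by Epha7 that also passed granular duct and striated duct markers.

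Cox4i1, the ubiquitous form of a complex IV subunit and the most abundant of that complex, ranged from 1268 to 4043 CPM (median 2404) in striated duct-like cells of the 12 control glands and from 260 to 473 CPM (median 296) in acinar-like cells. The ranges were far apart, and the fitted log2 fold change was 0.97 ± 0.14 (SE, adjusted p = 4.11e-08, edgeR). Cox6a1, the general form of another complex IV subunit, lay at 908 to 3556 CPM (median 1863) against 192 to 308 CPM (median 226), with a log2 fold change of 1.1 ± 0.14. Cox6c, a small complex IV subunit, had the largest difference of the abundant members, at 951 to 2974 CPM (median 1535) against 80.8 to 247 CPM (median 132) and 1.53 ± 0.13 (adjusted p = 4.29e-14, edgeR). All 3 genes were higher in 12 of 12 glands.

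Of the most abundant members of complexes I, III and V, some were called and others were not. Ndufa1, a small accessory subunit of complex I, reached a median of 634 CPM in striated duct-like and 61.9 CPM in acinar-like cells, with a fitted log2 fold change of 1.34 ± 0.13 (adjusted p = 9.3e-13, edgeR). Ndufb9 and Ndufa6, the complex I subunits with the most UMIs, had medians of 645 against 190 CPM and 531 against 132 CPM, without overlap, yet their fitted changes of -0.19 and 0.16 were not called. Uqcrh, the hinge protein of complex III, lay at 446 to 1391 CPM against 94.0 to 254 CPM and was called (0.86 ± 0.13), whereas Uqcrq, another small subunit of complex III, did not pass the test at 0.22 ± 0.14. For complex V, Atp5b, the catalytic β subunit, had medians of 1473 and 240 CPM and a log2 fold change of 0.52 ± 0.12 (adjusted p = 0.000345, edgeR), and Atp5j and Atp5j2 were not called at 0.25 and 0.02. Of the genes encoding the c subunit of the rotor, Atp5g3 was called higher (0.72), and Atp5g1 (0.23) and Atp5g2 (0.22) were not.

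The largest differences belonged to tissue-restricted subunits and to the coactivator. Cox7a1, the form of its subunit known from heart and skeletal muscle, lay at 28.8 to 218 CPM (median 160) in striated duct-like cells and at 0.39 to 10.9 CPM (median 2.50) in acinar-like cells of the 12 control glands. It was higher in 12 of 12 glands with no overlap, and the log2 fold change was 3.37 ± 0.26 (adjusted p = 6.8e-16, edgeR). Ppargc1a lay at 87.4 to 662 CPM (median 217) against 2.93 to 21.9 CPM (median 8.19), again in 12 of 12 glands and with 2.84 ± 0.19 (adjusted p = 1.92e-18, edgeR). Cox8b, a muscle form of the smallest complex IV subunit, had medians of 30.4 and 0.470 CPM and was higher in 9 of 12 glands, with overlapping ranges and a log2 fold change of 3.47 ± 0.39. For scale, Klk1 of the ducts itself reached 1839 CPM in acinar-like cells, a level that RNA from other cells can leave in a droplet.

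**Figure D2:**
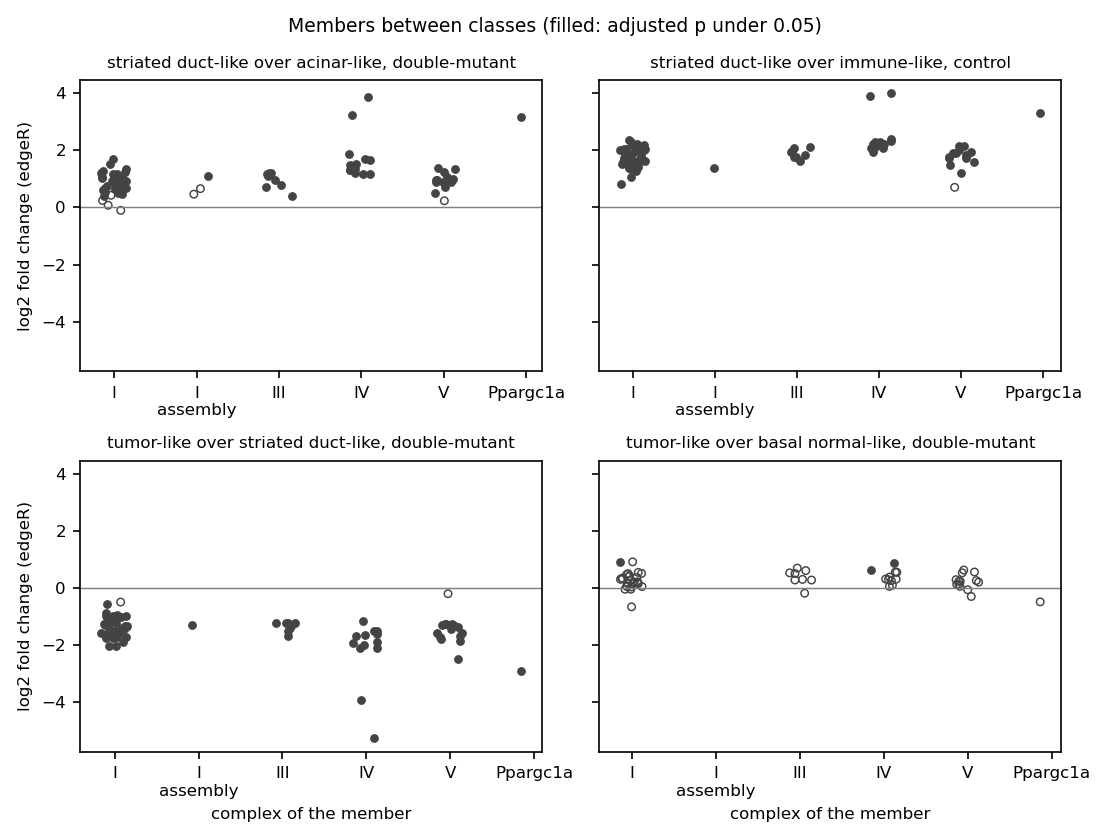
Fitted log2 fold change of each tested member of complexes I, I assembly, III, IV and V and of Ppargc1a between cell classes, from edgeR, with filled points at an adjusted p under 0.05 and open points otherwise (pseudogenes and other prefix members are not drawn). Nearly all members lie above 0 for striated duct-like against acinar-like cells of double-mutant glands and against immune-like cells of control glands, with Cox7a1 at 3.99 in the latter. They lie below 0 for tumor-like against striated duct-like cells of double-mutant glands. Tumor-like against basal normal-like cells are also drawn for double-mutant glands.

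As a share of the UMIs of both isoforms, Cox7a1 made up 13% of Cox7a1 plus Cox7a2 in striated duct-like cells (746 UMIs beside 4990 of Cox7a2, exact 95% binomial interval 12.1 to 13.9%). It made up 14.2% in Ascl3+ cells (12.6 to 15.8%), 5.63% in intercalated duct-like cells (4.46 to 7.0%), 4.36% in tumor-like cells (2.82 to 6.42%), 2.03% in basal normal-like cells (0.75 to 4.37%) and 1.80% in acinar-like cells (1.51 to 2.14%). The ubiquitous Cox7a2 was thus the major form in each class. Double-mutant P40 replicate 1 contributed 148 of the 746 Cox7a1 UMIs of striated duct-like cells. Cox8b made up 4.23% of Cox8a plus Cox8b in striated duct-like cells (3.74 to 4.77%), 1.41% in Ascl3+ cells (0.961 to 2.0%) and 0.672% in acinar-like cells (0.496 to 0.890%), and it had 0 of 845 UMIs in tumor-like cells, an upper bound of 0.436%. These intervals cover counting error only.

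Other isoforms went elsewhere. Cox4i2, a form of subunit 4 known from lung and from cells at low oxygen, had 0 of 10888 UMIs next to Cox4i1 in striated duct-like cells (upper bound 0.0339%), but 12 UMIs beside 503 of Cox4i1 in basal tumor-like cells, 2.33% of both (1.21 to 4.03%), and 1.57% in fibroblast-like cells (0.511 to 3.62%). Ndufa4l2, the paralog of Ndufa4, which was once assigned to complex I and is now placed with complex IV, made up 12.2% of the pair in fibroblast-like cells (7.42 to 18.7%) and had 0 of 5699 UMIs in striated duct-like cells. Cox6b2, known as a testis form, made up 3.72% in basal tumor-like (1.71 to 6.94%), 4.57% in fibroblast-like (1.99 to 8.81%) and 0.148% in striated duct-like cells. The basal tumor-like counts were small and 1 gland, double-mutant P40 replicate 2, held 5 of the 12 Cox4i2 UMIs and 5 of the 9 Cox6b2 UMIs.

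Muscle tissue would also carry Cox7a1, Cox8b and Ppargc1a. Over all kept cells, the skeletal muscle genes Ckm, Acta1, Mylpf, Tnnt3, Tnnc2 and Myl1 held 74, 36, 37, 17, 5 and 5 UMIs, and their summed share in striated duct-like cells ranged from 0 to 0.00218% of UMIs with a median of 0. The brown fat genes Ucp1, Cidea and Plin1 held 22, 81 and 6 UMIs, and Adipoq held 65. Fabp4, which endothelial and immune cells also use, held 5462 UMIs, and Cox7a1 itself 1487. The part of muscle or fat RNA in the levels of these 3 members was not tested.

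**Figure D3:**
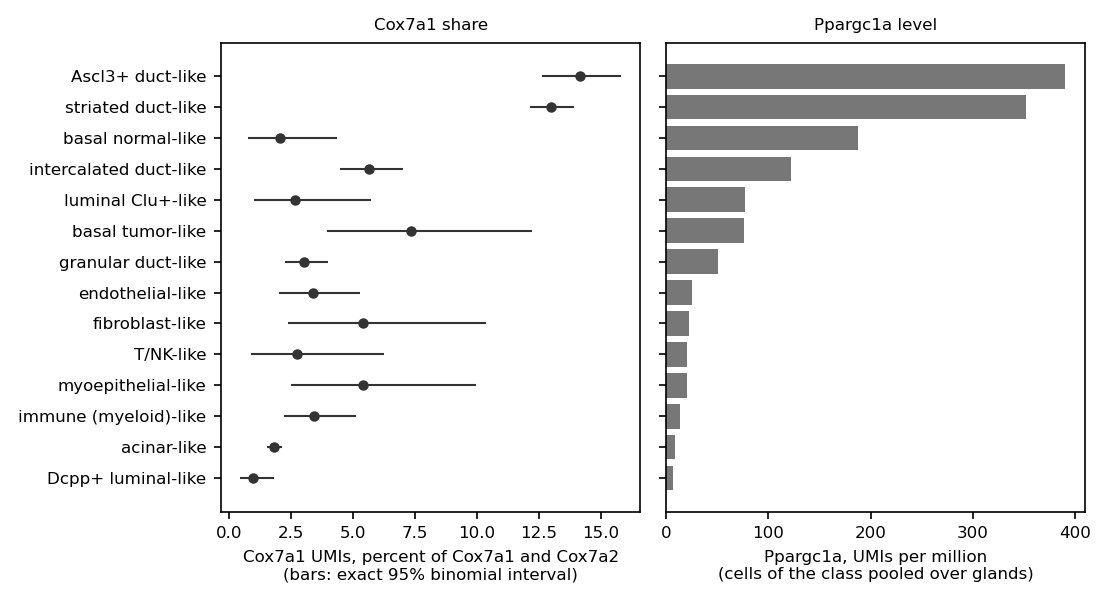
Share of Cox7a1 in the UMIs of Cox7a1 plus Cox7a2, in percent with exact 95% binomial intervals, and Ppargc1a in pooled CPM, for each cell class ordered by Ppargc1a. Ascl3+ and striated duct-like cells are highest in both, with 14.2% and 13% for Cox7a1 and 390 and 352 CPM for Ppargc1a.

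Of the 90 members, 45 had their highest pooled CPM in striated duct-like cells and 37 in Ascl3+ cells among 14 classes. This split was not repeated with the finer clustering, which drew the border between these classes elsewhere. Of complex I, 23 peaked in striated duct-like and 13 in Ascl3+ cells, and the 8 genes of complex III were split into 4 and 4. The 8 members with a peak elsewhere were Cox4i2, Cox6b2, Atp5g2, Cox7a2l and Atp5k-ps2 in basal tumor-like cells, Atp5s and Atp5l2-ps in basal normal-like cells and Ndufa4l2 in fibroblast-like cells. Cox7a2l was the only abundant gene among them, at 289 CPM, and striated duct-like cells had rank 7 for it. Ppargc1a ran from 390 CPM in Ascl3+ and 352 CPM in striated duct-like cells through 188 CPM in basal normal-like and 122 CPM in intercalated duct-like cells to 9.12 CPM in acinar-like and 6.85 CPM in Dcpp+ cells. Over the 14 classes, Ppargc1a and the share of the other members were correlated (Pearson's r = 0.951, Spearman's rho = 0.908), as a description only, since all classes came from the same libraries and denominators.

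For 73 of the 90 members, 3 of them by an older symbol, a promoter was listed in RefSeq (GRCm38.p6). At each listed start, the 250 bases before it and a short stretch after it were searched on both strands for 4 short motifs. These were GCGCATGCG for NRF1, AAGGTCA for the estrogen-related receptors (ERR), CCGGAAG for ETS factors and AAGATGG for YY1. A gene was counted if any of its listed starts held the letters. NRF1 letters were found in 10 members, 13.7%, and in 1.95% of 27025 genes. ETS letters were found in 15 members (20.5%, against 9.93% of all genes), YY1 letters in 12 (16.4% against 7.28%) and ERR letters in 7 (9.59% against 5.38%). At least 1 motif was present in 36 members, 49.3%, and in 22.3% of all genes. These were all genes with a listed promoter, whether or not they had UMIs here, whereas each member had at least 10 UMIs. Members without a matched promoter include abundant ones, such as Cox4i1, Cox6c and Ndufb9. What part the choice of background has in the difference was not tested. For 3 members the 250 bases before the start are shown, with motif letters in capitals. They were picked from the promoters of the most abundant matched member of each complex, Cox7a1 and Ppargc1a. Cox6a1 and Uqcrh are those among them with motif letters, and Cox7a1 is shown as one without.
Cox6a1, chr5:115348959-115349208, minus strand: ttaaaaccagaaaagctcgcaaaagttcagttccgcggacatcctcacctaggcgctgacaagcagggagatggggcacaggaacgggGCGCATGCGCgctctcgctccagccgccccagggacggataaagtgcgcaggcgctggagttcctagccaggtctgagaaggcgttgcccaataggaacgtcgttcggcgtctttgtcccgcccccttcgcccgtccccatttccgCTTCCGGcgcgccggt
Uqcrh, chr4:116075071-116075320, minus strand: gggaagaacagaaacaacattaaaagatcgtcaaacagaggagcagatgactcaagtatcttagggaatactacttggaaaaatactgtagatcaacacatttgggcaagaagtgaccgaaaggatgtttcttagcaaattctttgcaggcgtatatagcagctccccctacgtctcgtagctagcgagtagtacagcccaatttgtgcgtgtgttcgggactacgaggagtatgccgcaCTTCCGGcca
Cox7a1, chr7:30183921-30184170, plus strand: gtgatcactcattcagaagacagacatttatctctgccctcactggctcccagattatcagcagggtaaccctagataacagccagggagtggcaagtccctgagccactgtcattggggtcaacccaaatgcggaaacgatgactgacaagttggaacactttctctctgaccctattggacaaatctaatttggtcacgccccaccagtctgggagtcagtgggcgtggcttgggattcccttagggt
Cox6a1 held the NRF1 letters on both strands, overlapping and starting 162 and 161 bases before the start, and the ETS letters on the opposite strand 16 bases before it. Uqcrh held the ETS letters on the opposite strand 10 bases before the start. The window of Cox7a1 held none of the 4, and neither did those of Ndufa6, Atp5b and Ppargc1a, which says only that these letters are not in the window.

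The same comparison in double-mutant glands gave a like picture over 14 glands (863 striated duct-like and 2673 acinar-like cells). Of 78 members tested, 70 were higher in striated duct-like cells and 0 lower (edgeR, 45.5% of all genes called, 28.5% as higher), with a median log2 fold change of 0.98 against 0.21 over all genes. Called members were 32 of 36 in complex I, 8 of 8 in complex III, 13 of 13 tested in complex IV and 14 of 15 in complex V. Cox7a1 had medians of 198 CPM (0 to 734) and 2.0 CPM (0 to 23.7) and Ppargc1a 410 CPM (0 to 795) and 8.57 CPM (0 to 39.8), each higher in 13 of 14 glands, with fitted log2 fold changes of 3.85 ± 0.24 and 3.17 ± 0.19. The ranges touched because both genes had 0 UMIs in double-mutant P90 replicate 5, whose 15 striated duct-like cells held 6699 UMIs in all. Whether the difference was larger than in controls was not tested.

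Against immune-like cells, which share neither the secretory load nor the epithelial origin, 73 of 75 tested members were higher in striated duct-like cells of 10 control glands and 0 lower (edgeR, 61.4% of all genes called, 30.9% as higher and 30.5% as lower). The unscaled shift was small here, 0.14 on the log2 scale, and the median over the members was 1.90 against 0.08 over all genes. All 36 complex I genes, all 8 of complex III, all 13 tested of complex IV and 14 of 15 of complex V were called. Cox6a1 lay at 1740 to 3556 CPM (median 2037) against 244 to 537 CPM (median 365), with a log2 fold change of 2.38 ± 0.18 (adjusted p = 4.99e-12, edgeR). Cox7a1 reached 3.99 ± 0.41, Ppargc1a 3.29 ± 0.28 and Ndufa1 2.35 ± 0.20. The members not called included Cox7a2l at 0.02.

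Neighbouring pathways differed as well. In control glands, striated duct-like cells were higher than acinar-like cells in 16 of 17 genes of the tricarboxylic acid cycle, 3 of 4 genes of complex II and all 7 tested mitochondrially encoded subunits, with no gene lower in these lists. Idh3a, a subunit of isocitrate dehydrogenase, had a log2 fold change of 1.38 and Dlat, of the pyruvate dehydrogenase complex, of 1.37. Glycolysis genes were also higher, in 13 of 13 tested, led by the phosphofructokinase Pfkp (3.03), the glucose transporter Slc2a1 (2.47) and the hexokinase Hk1 (2.04). Of other mitochondrial proteins linked to the chain, 11 of 24 were called higher, with the ADP/ATP carrier Slc25a4 at 3.06 and the ATP synthase inhibitor Atpif1 at 2.04. Of 5 tested regulators of mitochondrial biogenesis, Esrrg, an estrogen-related receptor, was called (0.70), and in double-mutant glands Ppargc1b (1.93), Esrrg (1.18) and Esrra (1.11) were. Cytosolic ribosomal protein genes moved the other way, with 80 of 84 called lower in control glands.

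Tumor-like cells, the CSC-like, Clu+ and basal tumor-like clusters together, were set against basal normal-like cells of the same 9 double-mutant glands (1124 and 319 cells). The basal normal-like cluster passed by Krt14, Krt5, Krt15 and Trp63 against the median of all clusters, but the 10 genes that led it over the other basal-like cells held the intercalated duct markers Smgc and Esp18, the CSC marker Ptn and none of these 4. Of 60 members tested, 3 were higher and 0 lower in tumor-like cells (edgeR, 11.6% of all genes called, 8.96% as higher and 2.61% as lower), with a median log2 fold change of 0.28 against 0.08 over all genes. Ndufa4, a subunit of complex IV, lay at 364 to 934 CPM (median 668) against 0 to 690 CPM (median 408), higher in 9 of 9 glands with 0.86 ± 0.21 (adjusted p = 0.00376, edgeR). Ndufa1 (0.92 ± 0.31, adjusted p = 0.0432, edgeR) was higher in 7 of 9 glands and Cox6c (0.63 ± 0.20, adjusted p = 0.0372, edgeR) in 6 of 9. The count was 0 without the filter on low counts, and 2, without Ndufa1, when double-mutant P90 replicate 4 or the 2 libraries against their sex label were left out. Ppargc1a had medians of 80.8 and 81.6 CPM and a difference of -0.48 ± 0.43 that did not pass the test.

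Beside the members, Cox17, a copper chaperone of complex IV assembly, was higher in tumor-like cells (1.53 ± 0.41, adjusted p = 0.00992, edgeR), and 0 of 7 tested glycolysis genes and 0 of 4 tested tricarboxylic acid cycle genes were called. Ribosomal protein genes were lower in 10 of 82 tested. For the basal tumor-like cluster alone, 33 members passed the filter in 11 glands and 0 were called (edgeR, 17.9% of all genes called, 11.5% as higher and 6.37% as lower), with 1 at an unadjusted p under 0.05 and 0 by DESeq2. Its median log2 fold change was 0.03 against -0.03 over all genes, and Atp5b, at 425 against 643 CPM, had -0.43 ± 0.22. The comparison rested on 594 basal tumor-like and 337 basal normal-like cells, and members that did not pass the filter were not tested in it.

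Tumor-like cells lay far below striated duct-like cells of the same 12 glands. Of 75 members tested, 72 were lower and 0 higher (edgeR, 37.4% of all genes called, 15.4% as lower), with a median of -1.49 against 0.21 over all genes and an unscaled shift of only 0.02. Cox6a1 lay at 444 to 1159 CPM (median 588) in tumor-like and 1299 to 4303 CPM (median 2597) in striated duct-like cells, without overlap and lower in 12 of 12 glands, with -2.10 ± 0.23 (adjusted p = 1.63e-12, edgeR). Cox5a, another complex IV subunit, lay at 171 to 440 CPM against 562 to 1739 CPM (-2.11 ± 0.21), and Atp5g1, an isoform gene of the c subunit, had medians of 165 and 879 CPM (-2.50 ± 0.22). Cox7a1 (-3.92 ± 0.40) and Ppargc1a (-2.91 ± 0.28) were furthest apart among members with UMIs in both classes. The smallest called difference was that of Ndufb3 (-0.55), and Cox7a2l (-0.23) was not called. In the same comparison 15 of 16 tricarboxylic acid cycle genes and 5 of 9 glycolysis genes were lower, and 65 of 83 ribosomal protein genes were higher.

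Per gland, the members held 0.787 to 2.36% of the kept UMIs, with a median of 1.24%. Control P40 glands ranged from 0.787 to 1.84% (median 0.923%), control P90 glands from 1.09 to 1.83% (1.49%), double-mutant P40 glands from 1.05 to 2.36% (1.49%) and double-mutant P90 glands from 0.939 to 1.51% (1.14%). All 4 ranges overlapped. Without the 3 libraries named above, the double-mutant medians became 1.34% at P40 (6 glands) and 1.31% at P90 (5 glands). Control P90 glands came from batches 7 to 9 and control P40 glands from batches 12 to 14, as numbered in the labels, so stage and batch cannot be told apart in controls. Within the 5 batches that held both genotypes, the double-mutant minus control difference had no common sign. It was 0.266 percentage points in batch 8, -0.377 in batch 9, -0.305 in batch 12, 0.234 in batch 13 and 0.623 in batch 14. Stage was not matched in batches 12 and 13, where all controls were P40 and the double-mutants included a P90 gland. In batch 12 the P40 double-mutant gland held 1.57% and the P90 gland 0.969%, beside controls at 1.31 and 1.84%. In batch 13 the P40 double-mutants held 1.05 and 1.08% and the P90 gland 0.939%, beside a control at 0.787%.

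**Figure D4:**
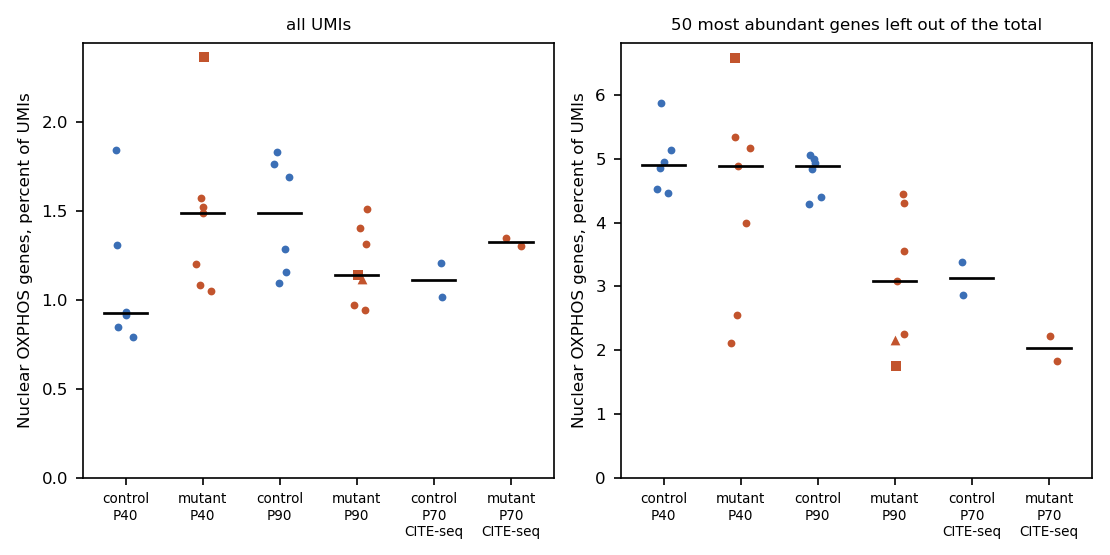
Share of the kept UMIs of each gland held by the 90 members, in percent, by genotype and stage (blue control, orange double-mutant, square for the 2 libraries against their sex label, triangle for double-mutant P90 replicate 4, bar for the median). The 4 groups overlap, with medians of 0.923, 1.49, 1.49 and 1.14%, and the highest gland, double-mutant P40 replicate 1, reaches 2.36%.

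The same denominator effect applied to whole glands, and the cell makeup moved with it. The 50 most abundant genes took a median of 74.0% of all UMIs in control glands, compared with 62.3% in the double-mutants. Without them, the members held a median of 4.90% and 4.88% in controls of P40 and P90, and of 4.89% and 3.09% in double-mutants of those stages. Striated duct-like cells made up a median of 8.96% of control and 4.70% of double-mutant cells, acinar-like cells 34.1% and 18.2%, and immune-like cells 4.26% and 14.1%. Striated duct-like cells supplied a median of 15.4% of all member UMIs in the controls and 14% in the double-mutants, and acinar-like cells 29.2% and 17.7%. The part of these shifts in the results per gland was not tested.

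Relative to other genes, members were lower in double-mutant glands. Over 14 double-mutant and 12 control glands, with sex and stage as covariates, 29 of 85 tested members were lower and 0 higher (edgeR, 22% of all genes called, 7.56% as lower), with a median of -0.49 against 0.02 over all genes. This direction did not hold on the unscaled CPM, where the median was 0.02 with 44 members above and 41 below 0. Adding the batch as a covariate left 0 called, and leaving out double-mutant P90 replicate 4 left 19. DESeq2 called 40 lower. With the replicate number as a block, which is no known pairing of the glands, 60 were lower and 1 higher. Barcodes that failed the filters made up a median of 5.44% in control and 16% in double-mutant glands, and 10 members were called lower when they were counted too. Complex I had 15 of 36 lower, complex V 6 of 15, complex III 3 of 8 and complex IV 3 of 13 tested. The lowest were Atp5j, a stalk subunit of complex V, at 107 to 520 CPM (median 347) against 268 to 543 CPM (median 405), with -0.90 ± 0.28 (adjusted p = 0.0231, edgeR), and Uqcrc2, a core protein of complex III (-0.76), Atp5c1 (-0.72), Atp5b (-0.71) and Ndufa10 (-0.68). The CPM ranges of all 5 overlapped between the genotypes. Ppargc1a (-0.26 ± 0.35) and Cox4i1 (-0.40 ± 0.18) were not called.

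Other lists were lower on the same scale in part, with 10 of 17 tricarboxylic acid cycle genes, 3 of 4 complex II genes, 10 of 24 linked mitochondrial proteins and 2 of 17 glycolysis genes called lower, and no mitochondrially encoded subunit called among 7. Fh1, the fumarase, had -0.76 and Idh3b -0.77. Of the regulators, Esrrg was lower (-1.03 ± 0.26, adjusted p = 0.00673, edgeR) and Pprc1, a relative of PGC-1α, higher (0.53 ± 0.18, adjusted p = 0.0344, edgeR). With batch as a covariate none of these 4 genes was called, with edgeR's adjusted p at 0.2 for Fh1, 0.173 for Idh3b, 0.135 for Esrrg and 0.554 for Pprc1, and the calls over all genes fell from 1515 higher and 793 lower to 279 and 21.

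By stage, 0 of 86 members were called between the genotypes at P40 (edgeR, 1.36% of all genes called, 1.29% as higher and 0.0701% as lower), with 7 at an unadjusted p under 0.05 and 1, Cox4i2, by DESeq2. With the replicate number as a block, 1 member, Ndufa10, was called lower, although no control and double-mutant glands with the same number shared a batch at this stage. At P90, 10 of 86 were lower and 0 higher (edgeR, 8.07% of all genes called, 5.44% as higher and 2.64% as lower), with a median of -0.68. These were Uqcrb (-1.14 ± 0.31, adjusted p = 0.027, edgeR), Cox7b (-1.02), Ndufab1 (-1.0), Cox5a (-0.95), Ndufb2 (-0.95), Ndufa5 (-0.94), Ndufa12 (-0.91), Ndufb10 (-0.84), Uqcr10 (-0.81) and Ndufb3 (-0.65). Cox5a, for example, lay at 162 to 263 CPM (median 203) in double-mutant and 219 to 410 CPM (median 290) in control P90 glands, which overlapped. The count at P90 fell to 5 without double-mutant P90 replicate 4, to 2 without the pair of libraries against their sex label and to 0 with batch as a covariate. It rose to 22 by DESeq2, to 17 without the filter on low counts and to 56 with the replicate number as a block, although the numbers did not pair the glands. On the unscaled CPM, 71 of 86 members were lower at P90, whereas at P40 82 of 86 were higher, against a fitted median of -0.27.

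The difference between the stages was not itself called. In the interaction of genotype and stage, 0 of 86 members passed (edgeR, 0.00876% of all genes called), with 9 at an unadjusted p under 0.05, all lower, and 0 by DESeq2. The median over the members was -0.43, and -0.16 without the pair of libraries against their sex label. From P40 to P90, 2 of 86 members were higher in control glands (edgeR, 5.04% of all genes called, 4.48% as higher). They were Atp5g2, at 4.87 to 21.9 CPM (median 5.88) at P40 and 21.4 to 47.7 CPM (median 29.4) at P90 with a log2 fold change of 1.39 ± 0.35 (adjusted p = 0.0258, edgeR), and the pseudogene row Atp5l-ps2 (2.01 ± 0.53). In double-mutant glands 0 of 86 were called (edgeR, 0% of all genes called), with 21 at an unadjusted p under 0.05, all lower, and 1, Cox7a1, by DESeq2. The median was -0.46, and -0.21 without the same pair of libraries. Cox7a1 lay at 16.2 to 110 CPM (median 27.6) in double-mutant P40 and at 1.25 to 19.1 CPM (median 12.4) in double-mutant P90 glands, with -2.05 ± 0.47 and an adjusted p of 0.229 by edgeR.

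**Figure D5:**
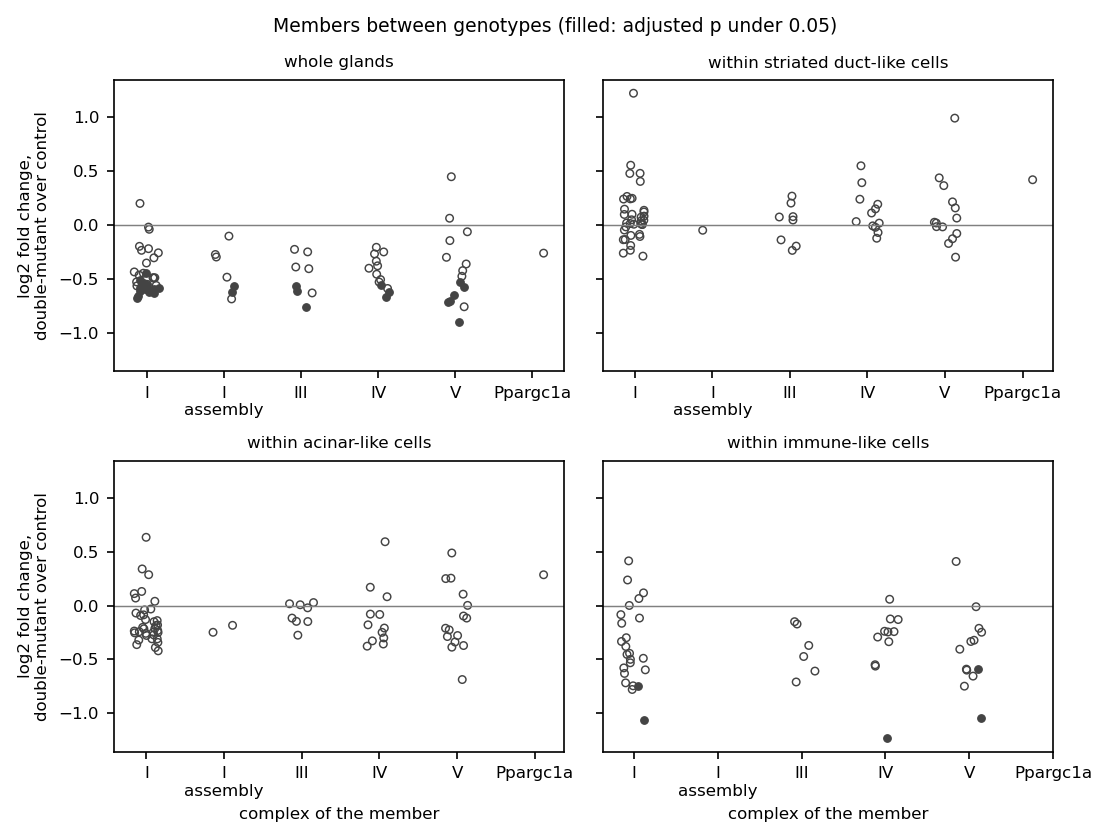
Fitted log2 fold change, double-mutant over control, of each tested member of complexes I, I assembly, III, IV and V and of Ppargc1a, from edgeR, in whole glands and within cell classes (filled at an adjusted p under 0.05, open otherwise, with pseudogenes and other prefix members not drawn). In whole glands most points lie below 0, with a median of -0.49, on a scale relative to other genes that does not hold on unscaled CPM, and within striated duct-like cells they scatter around 0.

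Within striated duct-like and within acinar-like cells, no member was called between the genotypes by edgeR. In striated duct-like cells of 14 double-mutant and 12 control glands, 0 of 73 tested members were called (edgeR, 0.315% of all genes called, 0.105% as higher), with 8 at an unadjusted p under 0.05, all higher, and 0 by DESeq2, and the median was 0.04. Their share of UMIs had a median of 5.37% in double-mutant and 4.20% in control glands. Ppargc1a had medians of 410 and 217 CPM (0.42 ± 0.27) and Cox7a1 of 198 and 160 CPM (0.55 ± 0.29), neither past the threshold. In acinar-like cells, 0 of 75 were called (edgeR, 1.69% of all genes called, 1.43% as higher), with 8 at an unadjusted p under 0.05, all lower, and 1, Atp5j, by DESeq2. The share was 0.691% in double-mutant and 0.699% in control glands. The genotypes filled the acinar-like clusters unequally. The cluster led by Gm12873 and Gm21718 held 31.4% of the double-mutant and 5.62% of the control acinar-like cells. The one led by Epha7 held 5.09% and 16.8%. This Epha7-led cluster was named by 3 acinar markers but also passed 6 granular duct and 3 striated duct markers. At resolution 1.5 a cluster led by Epha7, with 776 cells, passed the same duct lists and stayed unnamed. The part of this cluster makeup in the result was not tested.

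In immune-like cells, 5 of 55 tested members were lower in double-mutant glands and 0 higher (edgeR, 9.79% of all genes called, 5.44% as higher and 4.34% as lower), with a median of -0.37, a direction that flipped on the unscaled CPM, where 45 of 55 lay above 0. Ndufa4 lay at 104 to 377 CPM (median 147) in 14 double-mutant glands and at 150 to 510 CPM (median 259) in 10 control glands, with -1.23 ± 0.25 (adjusted p = 0.00221, edgeR). The others were Ndufb9 (-1.06), Atp5j (-1.04), Ndufb11 (-0.74) and Atp5b (-0.59), and all ranges overlapped. Double-mutant immune-like cells numbered 1993 and control ones 586. The class joined 2 clusters, and the smaller, led by the macrophage genes Gpnmb and Mmp12, held 14.7% of all double-mutant but 3.15% of all control immune-like cells, a difference whose part in the result was not tested. With batch as a covariate 0 were called.

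In the CITE-seq libraries at P70, members held 1.01 and 1.21% of UMIs in the 2 control glands and 1.3 and 1.35% in the 2 double-mutant glands, whereas without the 50 most abundant genes the order was inverted, at 2.86 and 3.38% against 1.83 and 2.23%. Control replicate 1 came from a male and the other glands from females, and sex was not in the fit. Of 83 tested members, 1 was higher and 5 were lower in double-mutant glands (edgeR, 13.7% of all genes called, 9.24% as higher and 4.47% as lower), with a median of -0.47, which was 0.22 on the unscaled CPM. Ndufs5, a small complex I subunit, was the higher one, at 34.3 and 39.9 CPM against 0 and 2.29 CPM. Ppargc1a was lower, at 5.97 and 6.35 CPM against 11.8 and 12.6 CPM (-1.66 ± 0.44, adjusted p = 0.042, edgeR). The other 4 were Atp5g3 (-1.29), Ndufs4 (-0.99), Ndufs7 (-0.97) and Atp5j (-0.93). With 2 glands a group, leaving out 1 gland left 0 to 4 calls, and 1 call, Ndufs5, without control replicate 2 or without double-mutant replicate 2. In these fits the spread came from the group that kept 2 glands, and the lone gland was assumed to vary alike.

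Ndufs5 also varied most among the members over the 26 Drop-seq glands, with an SD of 1.67 on the log2(CPM + 1) scale where the median member had 0.470. It lay under 1 CPM in 3 control P40 glands, replicates 3, 5 and 6, and reached 76.1 CPM in double-mutant P40 replicate 1. Atp5l ranged from 3.07 to 117 CPM (SD 1.27) and Atp5g2 from 3.99 to 61.4 CPM (SD 1.06), both subunits of complex V, and the pseudogene row Atp5l-ps2 had an SD of 1.23. Because reads of Atp5l and of its near-identical copies can be assigned to any of them, their separate levels are uncertain. The cause of this spread was not tested. Cox8b (1.47), Cox4i2 (1.28) and Cox7a1 (1.17) were the other variable members.

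The bulk libraries had 34515744 assigned reads for the control and 34729551 for the double-mutant gland. With 1 library a group there is no replicate check and no test, the ages differ, and fewer cells of a type cannot be told apart from less RNA per cell. In TPM, which divides the reads of a gene by its length before scaling to a common total, members summed to 2800 in the control and 2335 in the double-mutant gland. Complex I summed to 859 and 757 TPM, complex III to 381 and 324, complex IV to 843 and 674 and complex V to 652 and 519. Of 84 members with at least 20 reads in total, 3 were at least 2-fold lower in the double-mutant library and 0 at least 2-fold higher, where 8.63% of 13971 genes passed 2-fold, 3.64% as higher and 5% as lower. The median log2 ratio was -0.29 over members and -0.26 over all genes, and on TMM-scaled CPM -0.02 against -0.01 with 2 lower, which placed the members close to the typical gene.

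The 3 lower members were Cox8b, with 82 and 19 reads or 5.76 and 1.35 TPM, Ndufa4l2, with 30 and 7 reads, and Atp5sl, at 3.85 and 1.85 TPM. Cox7a1 stood at 18.3 TPM in the control and 12.3 TPM in the double-mutant library, next to 105 and 89.6 TPM for Cox7a2. Ppargc1a was at 2.78 and 3.23 TPM. Cox4i1 stood at 68.7 and 47.4 TPM and Atp5b at 134 and 102 TPM. Klk1, the marker of the striated duct-like class, was at 18554 TPM in the control and 6542 TPM in the double-mutant library, and its part in these values was not tested.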

How the data were processed

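The authors aligned Drop-seq and CITE-seq reads with STAR to mm10 with GENCODE genes plus Cre and EYFP, took barcodes by the knee of the count curve, and deposited raw UMI counts per gene and cell. For bulk RNA-seq the authors deposited raw read counts per gene from featureCounts, and no strand option was given in the sources used here. The antibody counts of the CITE-seq libraries were not used here. The paper states that a low amount of human HEK cells was added to the CITE-seq samples. Its authors removed these cells after mapping to both genomes. No such step was made here, and whether the counts used still hold human cells was not tested. Groups came from the sample labels. The members, the gene lists and the tests were chosen with earlier results of these data known, so no count over the members is independent support.

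Barcodes with at least 100 genes and under 15% mitochondrial UMIs were kept (CITE-seq also under 2500 genes). Counts without the members were clustered (2000 variable genes, 30 principal components, 20 neighbours, Leiden resolution 1.0, leidenalg 0.10.2) and a cluster could be named by a list with at least 3 markers at 2-fold over the median cluster and in 10% of its cells (1.5-fold over other basal-like cells for basal tumor). Of several such lists, the one with most markers among the 10 leading genes by fold was taken. Clusters stayed unnamed where the 30 leading genes held no marker of that list or where at least 3 of the 10 leading genes were small noncoding RNAs. No doublet caller was run. Counts were summed per gland and class with at least 10 cells (5 for basal tumor-like against basal normal-like cells). They were tested by edgeR 4.0.16 (filterByExpr, TMM, quasi-likelihood F-test, Benjamini-Hochberg over all genes tested, R 4.3.3). The gland was a block between classes, and sex and stage were covariates between genotypes. Comparisons by stage used groups of genotype and stage with sex as a covariate, and the CITE-seq fit had no covariate. Sex was taken from the labels, also for the libraries whose sex genes went against them. On simulated counts, edgeR was checked for striated duct-like against acinar-like cells in control glands and for double-mutant against control whole glands only. These counts had the same spread for every gene and no difference between glands, and the other comparisons were not simulated. Nothing states that glands were independent of litter, so p-values measure the spread between glands. Alternatives were DESeq2 1.42.0, RLE factors, no filter on low counts, resolution 1.5, all barcodes, thinned counts, batch as a covariate, a replicate block and left-out libraries.

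Shared replicate numbers were checked through the correlation of the deviations from group means over the 2000 most variable genes: at P40 all 6 pairs lay between 0.170 and 0.648, and at P90 the 6 pairs lay between -0.456 and -0.006. The own number was the best match in 4 of 12 pairs, all at P40, but no pair at P40 shared a batch. The numbers were therefore not taken to pair the glands, and the replicate block is an alternative setting only.

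Named genes were fixed by rule: in complexes I, III, IV and V the 3 members with the most UMIs, Ppargc1a, the isoform pairs, the Atp5g genes, in each comparison the 5 called members with the largest change in each direction, and at most 4 called genes of each pathway list. Members named outside it, such as the peaks outside the ducts and the most variable genes, were chosen after their values were seen. In bulk, TPM was computed from the counts with the gene lengths given in the file, and ratios used log2(TPM + 0.1).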

Additional observations from a re-analysis of the deposited data

Results flagged for a closer look

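Within groups of 6 or 7 glands, single libraries stood apart by Dixon's criterion in 20 of 108 groups of values tested. The groups of values reuse the same glands, and the members' share contains the single genes. Some values rest on few UMIs, such as Cox4i2 with 3 UMIs in control P40 replicate 1. The count is therefore not set against a chance rate. Double-mutant P40 replicate 1, a library whose sex genes went against its label, was the highest of its group in the members' share of UMIs (2.36%) and in 8 genes: Uqcrq (522 CPM), Uqcrh (543 CPM), Uqcr11 (556 CPM), Cox4i1 (1357 CPM), Cox6c (1045 CPM), Atp5g3 (382 CPM), Cox7a1 (110.3 CPM) and Cox8b (39.6 CPM). The same library was also far above its group for Ppargc1a, at 173 CPM. Control P40 replicate 1 was the highest of its group for Ppargc1a (157 CPM), Cox7a1 (46.9 CPM) and Cox8b (23.7 CPM), and also for the rare isoforms Cox4i2 (1.29 CPM) and Cox6b2 (1.29 CPM). It held the most striated duct-like cells of its group, 173. Other single glands were control P90 replicate 2 for Ppargc1a (130.5 CPM), control P90 replicate 6 for Cox8b (19.5 CPM), double-mutant P40 replicate 2 for Cox4i2 (14.7 CPM) and Cox6b2 (6.90 CPM) and double-mutant P90 replicate 4 for Ndufa4l2 (9.97 CPM).

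The barcodes that failed the filters on genes or mitochondrial UMIs, which entered only the count over all barcodes, were rich in the members. In 3641 such barcodes with 3533749 UMIs, members held 4.83% of the UMIs, against 1.21% in kept cells, and the share was higher in the failing barcodes of 25 of 26 glands. Klk1 stood at 97768 CPM in failing barcodes and at 13589 CPM in all kept cells. Failing barcodes made up a median of 5.44% of the barcodes of control glands (0.693 to 19.3%) and 16% of those of double-mutant glands (0.517 to 30.9%), and they held 40.5% of all Cox7a1 UMIs and 49.7% of all Cox8b UMIs. With all barcodes counted, the members held a median of 1.24% in control glands and 1.51% in the double-mutants. What part striated duct cells have in the failing barcodes was not tested.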

How the results depend on the processing

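Over all settings, 71 summary values stayed within 1.5 times of the reported count (or within the spread), 28 moved and 2 changed direction. Of the named genes, 236 pairs of gene and comparison gave 1156 unchanged calls, 176 lost calls, 1 gained call and 5 changes of sign. The 4 comparisons that involve striated duct-like cells against acinar-like, immune-like or tumor-like cells kept their counts within 1.5 times under every setting run. In tumor-like against basal normal-like cells, the 3 calls became 5 with RLE factors, 0 without the filter and 1 at resolution 1.5. Double-mutant against control whole glands went from 29 to 19 without double-mutant P90 replicate 4, 10 with all barcodes, 0 with batch as a covariate and 61 (1 higher, 60 lower) with the replicate block. At P40 the 0 calls became 1 by DESeq2, 1 without the filter and 1 with the replicate block. At P90 the 10 calls became 22 by DESeq2, 17 without the filter, 5 without double-mutant P90 replicate 4, 2 without the pair of libraries against their sex label, 0 with batch and 56 with the replicate block. The block shares only a number between glands: no pair at P40 shared a batch, and no pair at P90 passed the check. P90 against P40 in double-mutant glands gave 1 by DESeq2 and 3 without the filter, acinar-like cells gave 1 under each of these, and the interaction gave 1 without the filter. Immune-like cells gave 1 without the filter, 3 without the pair of libraries and 0 with batch. CITE-seq glands gave 2 by DESeq2 (1 higher, 1 lower), 11 without the filter (3 higher, 8 lower) and 0 to 4 leaving out 1 gland, where 1 call pointed upwards without control replicate 2 or double-mutant replicate 2. The median striated to acinar ratio of 7.02 became 1.88 without the 50 most abundant genes. Ndufb9 turned to -0.073 in double-mutant striated duct-like against acinar-like cells at resolution 1.5. Ppargc1a turned to 0.050 in whole glands with all barcodes, to -0.39 at P40 and -0.13 in acinar-like cells without the pair of libraries, and to -0.014 in acinar-like cells with batch, none of them called. The causes of these changes were not tested. The replicate block was fitted to these 3 comparisons between genotypes only. Depth limits the rare isoforms and the basal classes, where few members passed the filter.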
